A study of Mus musculus with 12 samples.

Results

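Mitosis and G2/M genes, a set of 40 transcripts that cells make around division, were followed in mouse olfactory epithelium. The 40 symbols were listed by name, and probe sets were taken wherever the platform annotation gave 1 of those symbols or an older alias. Of the 40, 39 had a probe set among the 13628 genes tested, and all 39 passed the filter on dim probe sets. No probe set was matched to Ccnb1, a mitotic cyclin, so it was not analysed here. The 39 genes carried 85 probe sets, of which 64 passed the filter, and the brightest of a gene's usable probe sets, by mean, stood for the gene.

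The tissue came from male wild-type C57BL/6J mice aged 6 weeks, with 1 Affymetrix array per sample and 3 arrays in each of 4 groups. Lip-C OBX mice received liposomes loaded with clodronate, a drug that kills phagocytes which take it up, and had both olfactory bulbs removed (OBX). Lip-O OBX mice received empty liposomes and the same operation. Lip-C sham and Lip-O sham mice received the same 2 kinds of liposome and a sham operation. All groups received 50 µl of liposomes intranasally on 3 consecutive days and 200 µl into a tail vein on the first and the last of them, with surgery on the second day, and tissue was taken 48 h after surgery. The samples are labelled as biological replicates, and how many mice went onto each array is not stated in the labels. The p-values therefore measure the spread between these samples.

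Cdk1 bound to a mitotic cyclin drives a cell from G2 into mitosis, the Aurora and Polo kinases build the spindle, and the spindle checkpoint holds the cell until every chromosome is attached. The anaphase promoting complex then marks the cyclins for destruction, and the midzone proteins split the cell. Transcription of most of these genes is kept low in G1 and released in G2 and mitosis, so their RNA is a common marker of dividing cells. In the olfactory epithelium the dividing cells are mainly the globose basal cells that replace sensory neurons. Removal of the bulb cuts the neurons' axons, kills the neurons and is followed by division of basal cells.

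Every array had been scaled to the same mean signal, and the median of all genes differed from the gene mean by at most 0.036 on the log2 scale on any array. Across genes, which are no independent replicates, the arrays within a group had r = 0.97 to 0.987. Markers of mature olfactory sensory neurons had summed signals of 46259 to 57827 in Lip-C OBX mice, 32535 to 52009 in Lip-O OBX mice, 69622 to 74260 in Lip-C sham mice and 65411 to 75810 in Lip-O sham mice. All 6 measured neuron markers fell with OBX. The array labelled Lip-O OBX replicate 2 stood apart for the mitosis genes: it had the highest signal of the 12 arrays for 32 of the 39.

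Most of the 39 genes were highest after OBX and lowest in Lip-C sham mice. In 36 of 39 the lowest group mean belonged to Lip-C sham mice, a place held by that group for 32% of all genes. Ndc80 and Ttk are among the 36, and for both the Lip-O arrays alone met the filter on dim probe sets. In 35 of 39 the highest belonged to Lip-O OBX mice, and the share of all genes for that place was not computed. Lip-O OBX replicate 2 had the highest signal of the 12 arrays in 32 of 39. In 19 of 39 genes, Ttk among them, all 3 Lip-C sham arrays lay below all 9 other arrays, which was so for 5.1% of all genes. The signals of the 39 probe sets summed to 18291, 19401 and 14974 in Lip-C OBX mice, 18634, 25605 and 17054 in Lip-O OBX mice, 12578, 11676 and 11533 in Lip-C sham mice, and 13397, 18580 and 16062 in Lip-O sham mice. The 3 Lip-C sham sums were the 3 lowest of the 12, and 2 of the 3 Lip-O sham sums lay within the range of the OBX sums. The Lip-O OBX sums of 18634 and 17054 lay within the range of the Lip-C OBX sums, and only that of replicate 2 lay above it. In tissue RNA, fewer dividing cells and less of these RNAs per cell cannot be told apart.

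**Figure D1:**
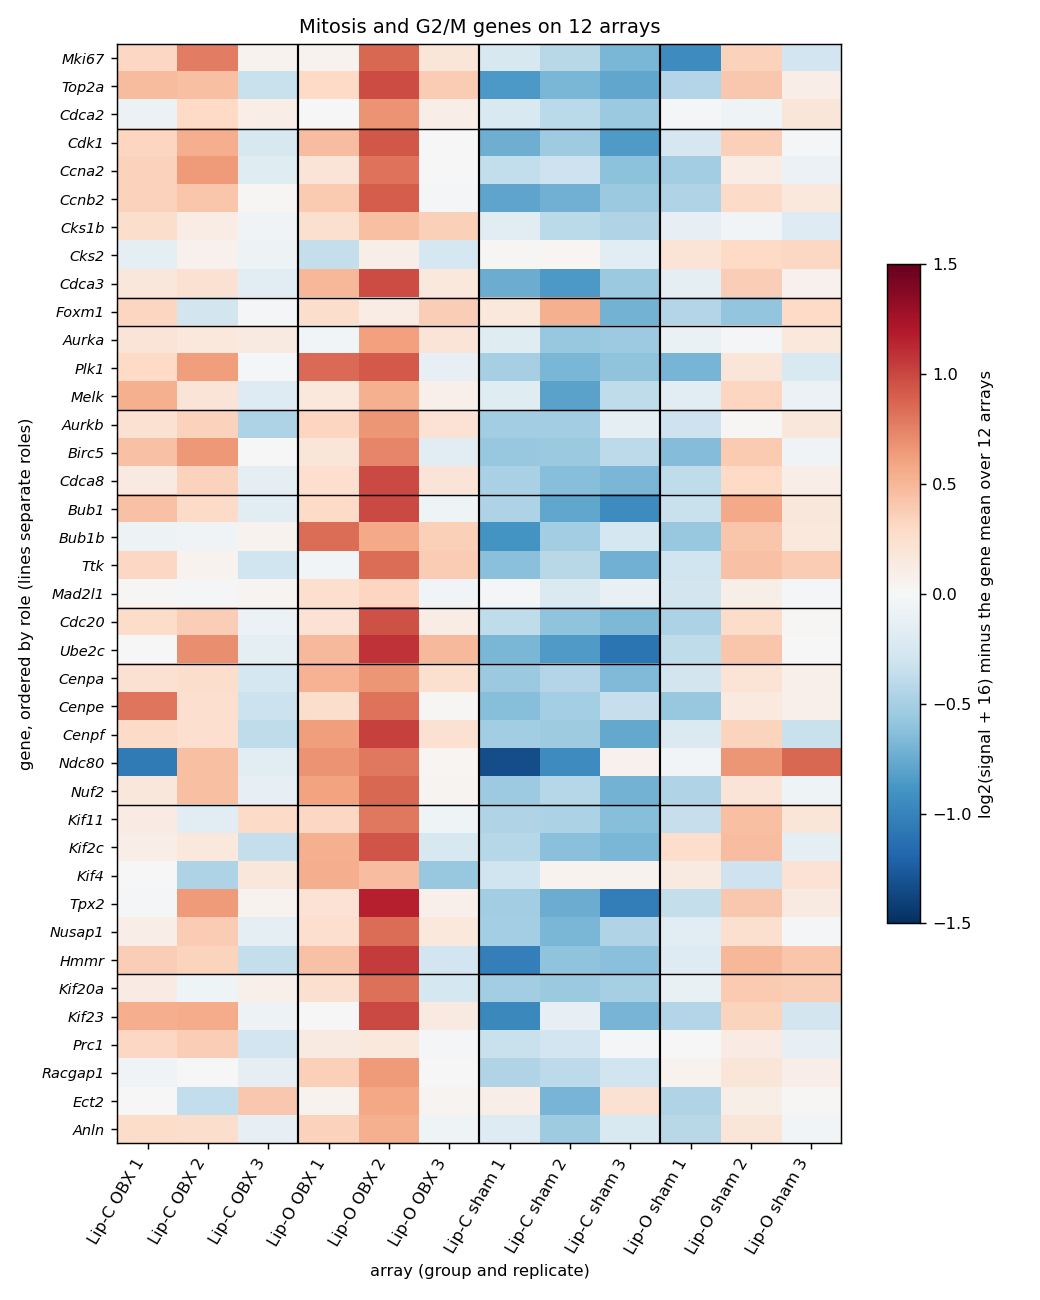
Signal of 39 mitosis and G2/M genes on 12 arrays, as the log2 difference from each gene's mean over the arrays, with genes in the order of their roles and arrays in the order Lip-C OBX, Lip-O OBX, Lip-C sham and Lip-O sham. The 3 Lip-C sham arrays are low across nearly all genes (median differences of -0.50, -0.53 and -0.56) and Lip-O OBX replicate 2 is high (0.82).

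Averaged over both liposome treatments, OBX raised 24 of 39 genes and lowered none at an adjusted p below 0.05 (limma, adjusted over all 13628 genes). The same call was made for 32.7% of all genes, in the higher direction for 19.2%. Changes are given on the log2 scale ± standard error, and those of the 24 ran from 0.36 to 0.87. Over all 39 the median difference was 0.53, with 38 positive, against a median of 0.05 over all genes, 58.2% of them positive. The 6 OBX and 6 sham arrays overlapped for every one of the 39 genes, whereas 5.53% of all genes were higher after OBX with no overlap. The count of 24 became 14 without Lip-C OBX replicate 2 and 15 without Lip-O sham replicate 1, where 25.7% and 28.3% of all genes were called. The call was kept by 14 genes whichever array was left out.

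Cdk1, the cyclins Ccna2 and Ccnb2, and Cdca3, Cks1b and Cks2 were grouped together. Of these, 5 of 6 rose with OBX on average, all but Cks2, against 19.2% of all genes. Cdk1, the kinase of mitotic entry, had signals of 537, 633 and 360.0 in Lip-C OBX mice, 597, 828 and 428 in Lip-O OBX mice, 252, 289.5 and 231 in Lip-C sham mice, and 356, 553 and 424 in Lip-O sham mice. Ccnb2, a mitotic cyclin that activates it, had 380.1, 403 and 299.6 in Lip-C OBX mice, 393, 569.6 and 293 in Lip-O OBX mice, 165, 174 and 197 in Lip-C sham mice, and 213, 364 and 334 in Lip-O sham mice. Both had every Lip-C OBX array above every Lip-C sham array, while the Lip-O OBX and Lip-O sham arrays overlapped. The mean OBX change was 0.67 ± 0.18 (adjusted p = 0.0175) on the log2 scale for Cdk1 and 0.69 ± 0.17 (adjusted p = 0.0117) for Ccnb2. Ccna2, the cyclin of S phase and G2, had 726, 895 and 497 in Lip-C OBX mice, 649.7, 1010.0 and 565 in Lip-O OBX mice, 435, 456 and 366 in Lip-C sham mice, and 390.4, 618 and 533 in Lip-O sham mice. It rose by 0.60 ± 0.18 (adjusted p = 0.0287), with Lip-O sham replicates 2 and 3 inside the range of the OBX arrays. Cdca3, an adaptor of a ubiquitin ligase that acts at mitotic entry, had 331, 345 and 257 in Lip-C OBX mice, 417, 589.8 and 327 in Lip-O OBX mice, 167, 153 and 193 in Lip-C sham mice, and 265, 381 and 306 in Lip-O sham mice. Its 3 Lip-C sham arrays were the lowest of all 12, and it rose with OBX by 0.62 ± 0.14 (adjusted p = 0.00879).

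Of the small Cdk-binding proteins, Cks1b rose and Cks2 fell with OBX in Lip-O mice. Cks1b had signals of 2979.6, 2685 and 2395 in Lip-C OBX mice, 2941, 3403 and 3179 in Lip-O OBX mice, 2201, 1875 and 1805 in Lip-C sham mice, and 2272, 2415 and 2163 in Lip-O sham mice. Without a replicate block it was the one gene of the set that rose with OBX under both liposomes, by 0.45 ± 0.11 (adjusted p = 0.0186) in Lip-C mice and 0.47 ± 0.11 (adjusted p = 0.013) in Lip-O mice, with no overlap between OBX and sham arrays in either. Its mean OBX change of 0.46 ± 0.08 (adjusted p = 0.0016) had the smallest p of the 39 genes. Cks2, measured by its brighter probe set, had 1703, 1983 and 1786 in Lip-C OBX mice, 1473, 2012 and 1566 in Lip-O OBX mice, 1911, 1923 and 1687 in Lip-C sham mice, and 2189, 2323 and 2341 in Lip-O sham mice. In Lip-O mice all 3 OBX arrays lay below all 3 sham arrays, a fall of 0.45 on the log2 scale ± 0.12 (adjusted p = 0.0228), whereas in Lip-C mice the groups overlapped and the difference was -0.01. The second Cks2 probe set had 1261, 1515 and 1108 in Lip-C OBX mice, 1177, 1719 and 1128 in Lip-O OBX mice, 1110.1, 914 and 997 in Lip-C sham mice, and 1058, 1359.5 and 1119.5 in Lip-O sham mice. That probe set gave 0.17 ± 0.17 for OBX in Lip-O mice, opposite in sign to the first, and averaging the pair gave -0.14 (adjusted p = 0.51).

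**Figure D2:**
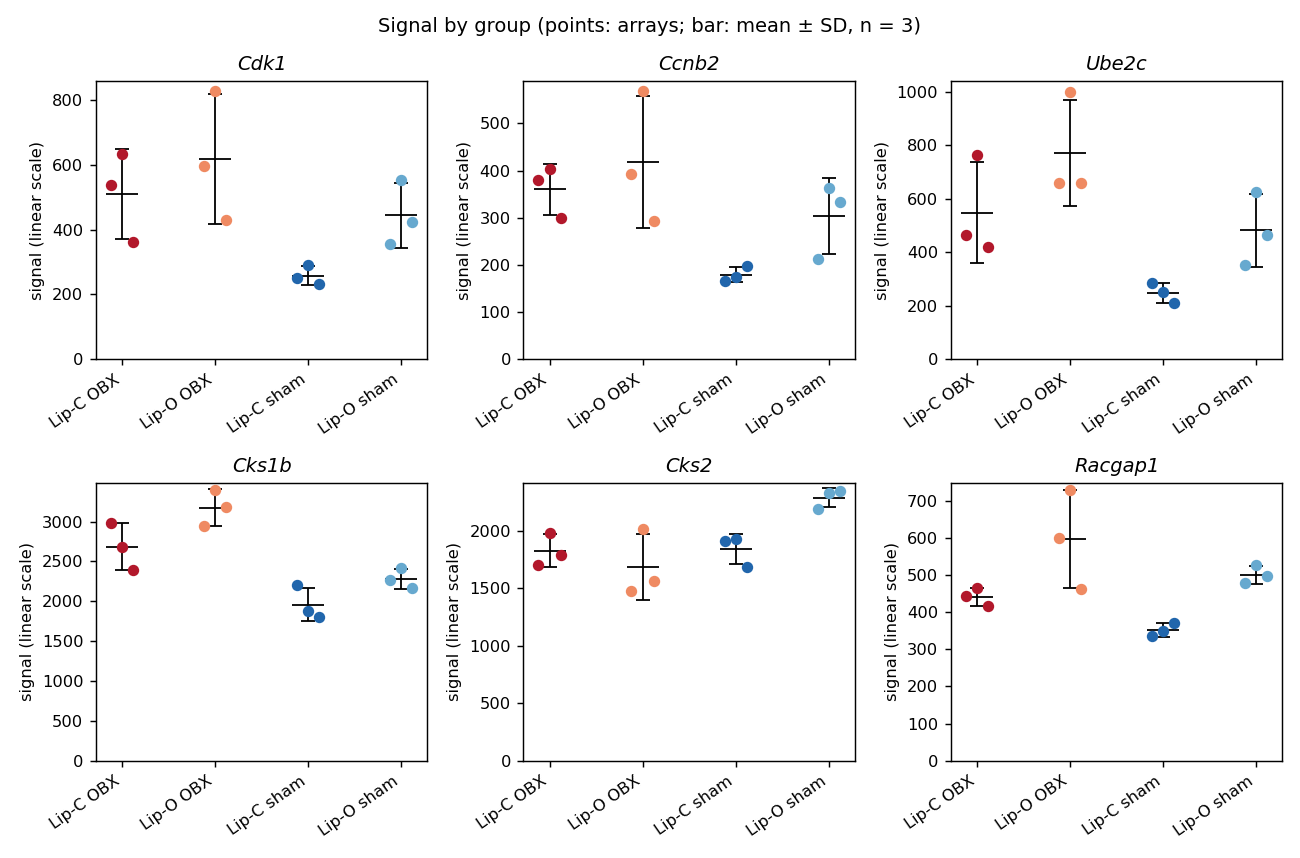
Signal of Cdk1, Ccnb2, Ube2c, Cks1b, Cks2 and Racgap1 on each array (points) with the group mean and SD (bars, n = 3), on linear axes that start at 0. Lip-C sham arrays are the 3 lowest for Cdk1, Ccnb2, Ube2c and Racgap1, and for Cks2 the 3 Lip-O sham arrays are the highest.

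A pair of short elements is known from the promoters of G2/M genes: the CHR element, which binds the repressive DREAM complex in resting cells and B-Myb and Foxm1 complexes in G2, and the CCAAT box, which binds NF-Y. Promoters in RefSeq (GRCm38.p6, 250 bases before to 50 after the gene's start) were found for 33 of the 39 genes, all but Cdca2, Ccna2, Aurkb, Tpx2, Foxm1 and Kif20a. TTTGAA, the CHR letters searched on both strands, was present in 25 of 33 genes (75.8%) and in 20.2% of all genes with a promoter. Within 50 bases of the start it was present in 23 of 33 genes, against 5.72% of all genes. CCAAT, also on both strands, was present in 25 of 33 genes (75.8%) against 41.1% of all genes, and at least 2 matches were present in 18 of 33 against 13.3% of all genes. The E2F letters TTTCCCGC, TTTGGCGC and TTTCGCGC, on both strands, were found in 1 of 33 genes (3.03%), Cdk1, and in 2.12% of all genes. The CHR was not found in Birc5, Bub1, Cenpe, Cks2, Mad2l1, Melk, Nuf2 or Nusap1. Of these, Birc5, Bub1, Cenpe, Nuf2 and Nusap1 rose with OBX on average, and Nuf2 and Nusap1 also rose within Lip-C mice. Whether holding a CHR goes with the OBX change was not tested. A match is a description of the letters in this window. The promoters of Cdk1, Ccnb2 and Ube2c are shown as genes that rose after OBX in Lip-C mice, that of Cks1b because it rose under both liposomes, and that of Cks2 because its brighter probe set fell in Lip-O mice. Of 12 fits that each left out 1 array, the call in Lip-C mice was kept in 7 for Cdk1, 7 for Ccnb2, 8 for Ube2c and 8 for Cks1b. In Lip-O mice the call was kept in 8 for Cks2 and in 12 for Cks1b. Capitals mark the CHR and CCAAT letters on either strand, so TTCAAA and ATTGG are their reverse complements.
Cdk1 (chr10:69352863-69353162, minus strand): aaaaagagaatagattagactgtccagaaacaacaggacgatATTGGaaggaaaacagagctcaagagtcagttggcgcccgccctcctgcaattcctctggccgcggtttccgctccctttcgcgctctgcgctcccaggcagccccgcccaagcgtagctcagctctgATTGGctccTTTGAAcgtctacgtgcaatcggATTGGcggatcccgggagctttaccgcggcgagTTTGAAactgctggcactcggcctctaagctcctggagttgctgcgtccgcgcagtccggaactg
Ccnb2 (chr9:70421505-70421804, minus strand): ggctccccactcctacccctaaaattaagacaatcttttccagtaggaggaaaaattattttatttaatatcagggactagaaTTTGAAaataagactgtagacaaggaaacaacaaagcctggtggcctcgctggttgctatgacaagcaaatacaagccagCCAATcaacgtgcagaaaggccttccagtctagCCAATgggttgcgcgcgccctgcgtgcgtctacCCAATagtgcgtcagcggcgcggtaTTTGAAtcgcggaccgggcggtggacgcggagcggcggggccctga
Ube2c (chr2:164769679-164769978, plus strand): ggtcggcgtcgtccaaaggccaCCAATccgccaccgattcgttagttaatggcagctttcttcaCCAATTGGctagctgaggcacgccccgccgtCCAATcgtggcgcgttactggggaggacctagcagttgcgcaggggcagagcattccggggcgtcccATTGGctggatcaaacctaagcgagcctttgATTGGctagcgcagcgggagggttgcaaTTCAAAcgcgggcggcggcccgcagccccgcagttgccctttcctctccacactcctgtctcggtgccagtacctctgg
Cks1b (chr3:89418242-89418541, minus strand): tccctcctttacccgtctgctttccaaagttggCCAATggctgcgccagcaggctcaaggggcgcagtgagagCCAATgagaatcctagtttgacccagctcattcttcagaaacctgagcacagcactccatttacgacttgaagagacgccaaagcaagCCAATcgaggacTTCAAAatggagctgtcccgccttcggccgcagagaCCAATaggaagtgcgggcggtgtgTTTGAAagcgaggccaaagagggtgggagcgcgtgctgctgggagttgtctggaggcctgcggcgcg
Cks2 (chr13:51644982-51645281, plus strand): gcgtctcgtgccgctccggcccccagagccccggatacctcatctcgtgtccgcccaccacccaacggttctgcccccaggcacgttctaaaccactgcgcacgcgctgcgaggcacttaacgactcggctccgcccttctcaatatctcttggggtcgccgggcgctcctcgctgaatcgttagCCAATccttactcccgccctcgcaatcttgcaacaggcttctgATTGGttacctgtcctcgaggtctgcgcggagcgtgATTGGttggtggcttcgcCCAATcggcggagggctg
Cdk1 and Ccnb2 each hold 2 CHR and 3 CCAAT matches, Ube2c holds 1 CHR and 6 CCAAT matches, of which a pair share 2 bases, Cks1b holds 2 and 4, and Cks2 holds 4 CCAAT matches and no CHR.

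**Figure D3:**
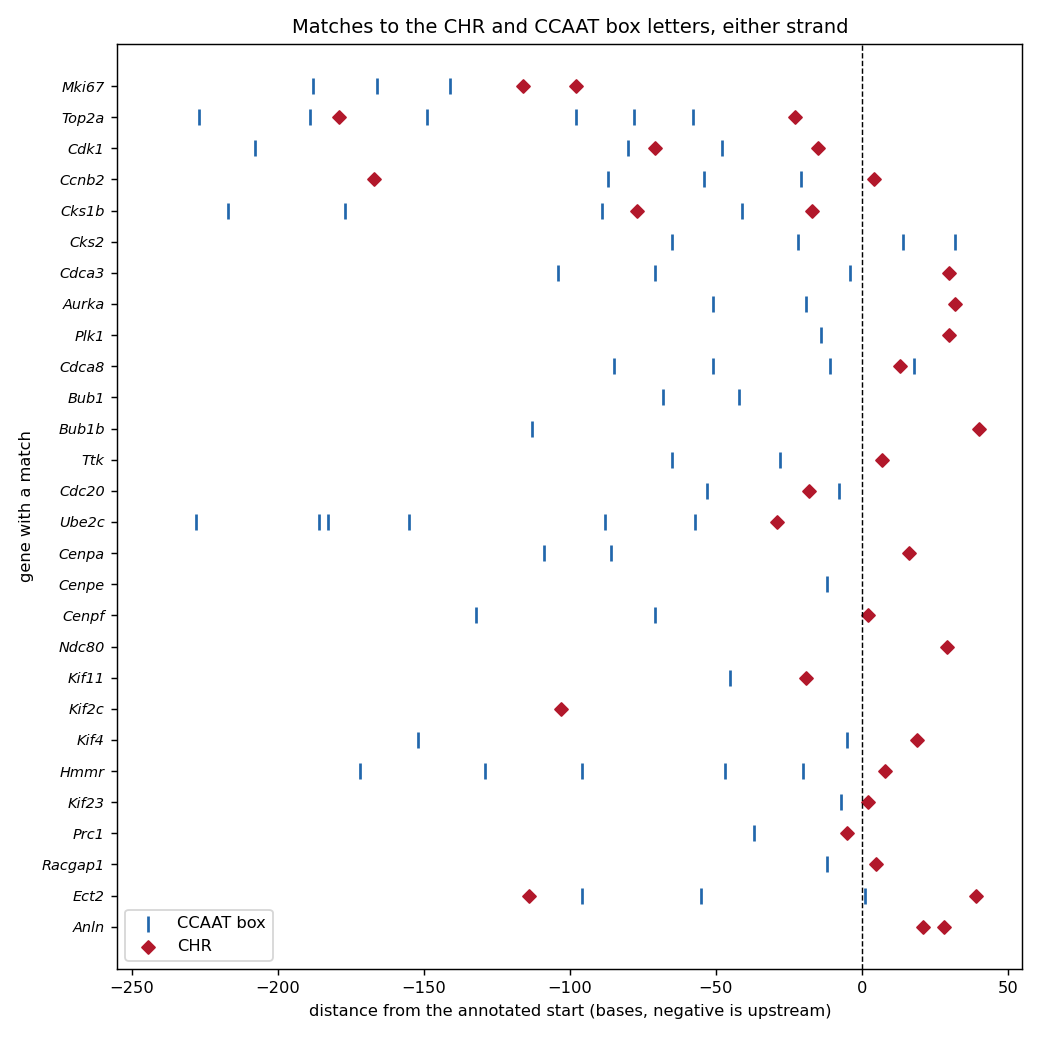
Position of CHR (TTTGAA) and CCAAT letters in the promoters of 28 mitosis and G2/M genes that hold at least 1 of them, as distance in bases from the gene's start. CHR matches gather near the start, and 23 of the 33 genes with a promoter have 1 within 50 bases of it.

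Of the chromosome proteins, all 3 rose with OBX, against 19.2% of all genes. Mki67, which coats mitotic chromosomes and encodes the Ki-67 antigen, had signals of 1168, 1611 and 974 in Lip-C OBX mice, 981, 1719.6 and 1073 in Lip-O OBX mice, 794, 704 and 580.3 in Lip-C sham mice, and 482, 1202 and 769 in Lip-O sham mice. Its 3 Lip-O sham arrays spread widely, from the lowest of all 12 to above 2 of the 3 Lip-C OBX signals, and the mean OBX change was 0.74 ± 0.23 (adjusted p = 0.0294). Top2a, the topoisomerase that untangles DNA before chromosomes separate, had 862, 851 and 484 in Lip-C OBX mice, 763, 1229 and 804 in Lip-O OBX mice, 332, 377 and 354 in Lip-C sham mice, and 452, 822 and 660.1 in Lip-O sham mice. Lip-C sham arrays were the 3 lowest, and OBX raised Top2a by 0.97 ± 0.27 (adjusted p = 0.0318) in Lip-C mice. Cdca2, which brings protein phosphatase 1 to anaphase chromatin, had 106, 143 and 122 in Lip-C OBX mice, 113, 189.7 and 123 in Lip-O OBX mice, 94.4, 81.3 and 71.8 in Lip-C sham mice, and 111, 108 and 131 in Lip-O sham mice. Its mean OBX change was 0.36 ± 0.12 (adjusted p = 0.0433), the smallest among the 24 genes that rose, and its 3 Lip-C sham arrays were the lowest.

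Of the mitotic kinases, Aurka and Plk1 rose with OBX and Melk did not pass. Plk1, the Polo-like kinase, had 208, 265 and 163 in Lip-C OBX mice, 312, 327 and 152 in Lip-O OBX mice, 113, 97.1 and 104 in Lip-C sham mice, and 96.0, 190.1 and 139 in Lip-O sham mice. Its lowest signal was that of Lip-O sham replicate 1, its 3 Lip-C OBX arrays lay above its 3 Lip-C sham arrays, and it rose by 0.85 ± 0.21 (adjusted p = 0.0108) on average. Aurka, the Aurora kinase of the centrosome and spindle, had 299, 293 and 288 in Lip-C OBX mice, 253, 408 and 298 in Lip-O OBX mice, 228, 171 and 173 in Lip-C sham mice, and 243, 254 and 292 in Lip-O sham mice. It rose by 0.59 ± 0.16 (adjusted p = 0.0289) in Lip-C mice, with no overlap, and differed by 0.25 ± 0.16 (adjusted p = 0.306) in Lip-O mice. Melk, a kinase of dividing and embryonic cells, had 581, 454 and 345 in Lip-C OBX mice, 441, 579.6 and 417 in Lip-O OBX mice, 346, 219 and 301 in Lip-C sham mice, and 351, 498 and 372 in Lip-O sham mice. Lip-C OBX replicate 3 lay within the Lip-C sham range, and the mean OBX difference was 0.43 ± 0.16 (adjusted p = 0.0555).

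The chromosomal passenger complex, which corrects faulty attachments, had 2 of 3 genes higher, against 19.2% of all genes. Birc5, or survivin, had 408, 472 and 295 in Lip-C OBX mice, 338, 504 and 261 in Lip-O OBX mice, 194, 196 and 221 in Lip-C sham mice, and 184, 393 and 286 in Lip-O sham mice. It rose by 0.61 ± 0.20 (adjusted p = 0.0376), with all 3 Lip-C OBX arrays above all 3 Lip-C sham arrays and wide overlap in Lip-O mice. Cdca8, or borealin, had 624, 725 and 511 in Lip-C OBX mice, 679, 1139.6 and 648 in Lip-O OBX mice, 399, 357 and 346 in Lip-C sham mice, and 428, 698 and 609 in Lip-O sham mice. The Lip-C sham arrays were the 3 lowest, and OBX raised it by 0.60 ± 0.16 (adjusted p = 0.0181). Aurkb, the kinase of the complex, ran from 66.3 to 170.6 over the 12 arrays and differed by 0.44 ± 0.15 (adjusted p = 0.0521). Its second probe set had 77.3, 106.7 and 70 in Lip-C OBX mice, 86.5, 88.2 and 72.7 in Lip-O OBX mice, 50.8, 32.6 and 44.1 in Lip-C sham mice, and 50.8, 73.1 and 65.1 in Lip-O sham mice. It was over the 40th percentile on 5 OBX arrays and 1 sham array. The OBX arrays alone met the filter, so no test is given for this probe set.

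Of the 4 spindle checkpoint genes, Bub1 and Bub1b rose (50%, against 19.2% of all genes higher and 32.7% called in either direction). Bub1, a checkpoint kinase, had 173, 154 and 108 in Lip-C OBX mice, 155, 260.4 and 118 in Lip-O OBX mice, 85.6, 65.5 and 56.3 in Lip-C sham mice, and 94.7, 191 and 142 in Lip-O sham mice. Its 3 Lip-C sham arrays were the lowest, Lip-O sham replicate 2 was among the highest, and the mean OBX change was 0.59 ± 0.21 (adjusted p = 0.0492). Bub1b, which encodes BubR1, had 149.6, 152 and 165 in Lip-C OBX mice, 296, 243 and 207 in Lip-O OBX mice, 78.1, 105 and 129 in Lip-C sham mice, and 101, 218 and 179 in Lip-O sham mice. The OBX groups did not overlap with each other, with Lip-C OBX arrays below Lip-O OBX arrays, and OBX raised Bub1b by 0.56 ± 0.17 (adjusted p = 0.0279). Mad2l1, which encodes Mad2, had 720.0, 705 and 734 in Lip-C OBX mice, 852, 893 and 694 in Lip-O OBX mice, 698, 610.0 and 656 in Lip-C sham mice, and 588, 756 and 699.7 in Lip-O sham mice. Its 3 Lip-C OBX arrays lay above its 3 Lip-C sham arrays, its Lip-O groups overlapped, and it differed by 0.19 ± 0.08 (adjusted p = 0.0921). Ttk, which encodes the Mps1 kinase, averaged 90.7 ± 22.3 in Lip-C OBX mice, 124 ± 42.3 in Lip-O OBX mice, 52.9 ± 7.56 in Lip-C sham mice and 104 ± 30.9 in Lip-O sham mice (SD, n = 3 each). The Lip-C sham mean of Ttk lay under the arrays' 40th percentile of 65.3 to 79.3, so no change is given against it.

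Both genes that feed the anaphase promoting complex rose, against 19.2% of all genes. Ube2c, the ubiquitin-conjugating enzyme that works with the complex, had 463, 763 and 418 in Lip-C OBX mice, 658, 1000.4 and 657 in Lip-O OBX mice, 284, 250.1 and 209 in Lip-C sham mice, and 352, 626 and 465 in Lip-O sham mice. OBX and sham arrays did not overlap under either liposome, and the mean change was 0.87 ± 0.19 (adjusted p = 0.00609), with 1.06 ± 0.26 (adjusted p = 0.0224) in Lip-C mice and 0.67 ± 0.26 (adjusted p = 0.099) in Lip-O mice. Cdc20, which activates the complex and is held by the checkpoint, had 826, 884 and 643 in Lip-C OBX mice, 797, 1341 and 741 in Lip-O OBX mice, 519, 442 and 422 in Lip-C sham mice, and 486, 832 and 689.6 in Lip-O sham mice. It rose by 0.62 ± 0.17 (adjusted p = 0.0198) on average, with no overlap in Lip-C mice and overlap in Lip-O mice.

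At the centromere and kinetochore, 4 of 5 genes rose, against 19.2% of all genes. Cenpa, the histone variant that marks centromeres, had 317, 325 and 220.0 in Lip-C OBX mice, 389.9, 431 and 318 in Lip-O OBX mice, 177, 193 and 163 in Lip-C sham mice, and 218, 312 and 283 in Lip-O sham mice. OBX arrays lay above sham arrays within each liposome, and Cenpa rose by 0.55 ± 0.12 (adjusted p = 0.00697). Cenpf, a kinetochore protein of G2 and mitosis, had 349.6, 341 and 215 in Lip-C OBX mice, 445, 597 and 336 in Lip-O OBX mice, 193, 191 and 159.5 in Lip-C sham mice, and 242, 362 and 222 in Lip-O sham mice. Its Lip-C sham arrays were the lowest 3, and it rose by 0.68 ± 0.17 (adjusted p = 0.0131). Cenpe, a kinetochore motor, had 282, 188 and 122 in Lip-C OBX mice, 190.2, 286 and 157 in Lip-O OBX mice, 94.0, 105 and 118 in Lip-C sham mice, and 99.4, 174 and 165 in Lip-O sham mice. It rose by 0.61 ± 0.21 (adjusted p = 0.0438), with overlap in Lip-O mice. Nuf2, which pairs with Ndc80 at the kinetochore, had 188, 232 and 151 in Lip-C OBX mice, 259, 313 and 171 in Lip-O OBX mice, 108, 119 and 95.0 in Lip-C sham mice, and 116, 191 and 158 in Lip-O sham mice. It rose by 0.67 ± 0.16 (adjusted p = 0.0103), and its Lip-C OBX arrays lay above its Lip-C sham arrays. Ndc80 itself was dim, from 7.50 on a Lip-C sham array to 91.5 on a Lip-O sham array, and its mean over the 12 arrays lay under their 40th percentile.

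Among the spindle motors and binding proteins, 2 of 6 rose. This share of 33.3% was near that of all genes called in either direction (32.7%, with 19.2% higher). Tpx2, which activates Aurka on spindle microtubules, had 154, 255 and 165 in Lip-C OBX mice, 187, 375 and 168 in Lip-O OBX mice, 105, 87.4 and 68.9 in Lip-C sham mice, and 119, 215 and 174 in Lip-O sham mice. It rose by 0.71 ± 0.21 (adjusted p = 0.0284) with its Lip-C sham arrays the lowest 3. Nusap1, a spindle protein, had 346, 423 and 292 in Lip-C OBX mice, 387, 589 and 361 in Lip-O OBX mice, 222, 194 and 232 in Lip-C sham mice, and 288, 385 and 317 in Lip-O sham mice. It rose by 0.53 ± 0.13 (adjusted p = 0.0134), and by 0.66 ± 0.19 (adjusted p = 0.0362) in Lip-C mice with no overlap. Kif2c, a motor that shortens microtubules, had 197, 205 and 139 in Lip-C OBX mice, 272, 365 and 152 in Lip-O OBX mice, 132, 113 and 108 in Lip-C sham mice, and 222, 257 and 165 in Lip-O sham mice. Its difference of 0.38 ± 0.19 (adjusted p = 0.154) did not pass, nor did those of the Eg5 motor Kif11 (0.43) and the chromokinesin Kif4 (0.05). The OBX and sham arrays of Kif2c did not overlap in Lip-C mice and overlapped in Lip-O mice. Hmmr, a spindle protein, averaged 125 ± 35.9 in Lip-C OBX mice, 163 ± 79.0 in Lip-O OBX mice, 59.7 ± 11.7 in Lip-C sham mice, under the 40th percentile, and 137 ± 36.6 in Lip-O sham mice (SD, n = 3 each).

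Of the 6 midzone and cytokinesis genes, Kif23 and Anln rose with OBX. Their share of 33.3% was near that of all genes called in either direction (32.7%, with 19.2% higher). Kif23, the motor of centralspindlin, had 268, 270.4 and 168 in Lip-C OBX mice, 179, 371 and 199 in Lip-O OBX mice, 84.1, 163 and 104 in Lip-C sham mice, and 128, 231 and 146 in Lip-O sham mice. Its OBX arrays lay above its sham arrays in Lip-C mice and overlapped them in Lip-O mice, and it rose by 0.72 ± 0.22 (adjusted p = 0.0321). Anln, a scaffold of the contractile ring, had 414, 408 and 309 in Lip-C OBX mice, 434, 496 and 323 in Lip-O OBX mice, 295, 229 and 286 in Lip-C sham mice, and 249.6, 387 and 329 in Lip-O sham mice. It rose by 0.41 ± 0.14 (adjusted p = 0.0422), with no overlap in Lip-C mice. Kif20a, a midzone motor, had 125, 108 and 120.3 in Lip-C OBX mice, 138, 215 and 92.1 in Lip-O OBX mice, 74.4, 72.2 and 75.5 in Lip-C sham mice, and 104, 155 and 152 in Lip-O sham mice. In Lip-O mice its OBX and sham arrays overlapped, and in Lip-C mice they did not overlap, with a mean OBX difference of 0.31 ± 0.16 (adjusted p = 0.166). Ect2, an exchange factor that acts at the midzone, had 578, 439 and 763 in Lip-C OBX mice, 593, 863 and 592 in Lip-O OBX mice, 614, 348 and 677 in Lip-C sham mice, and 415, 612 and 580.3 in Lip-O sham mice. All its groups overlapped, and it differed by 0.24 ± 0.20 (adjusted p = 0.381). Prc1, which bundles midzone microtubules, had 582, 605 and 379 in Lip-C OBX mice, 512, 519.6 and 454 in Lip-O OBX mice, 366, 378 and 455 in Lip-C sham mice, and 464, 509 and 427 in Lip-O sham mice. Its mean OBX difference was 0.22 ± 0.12 (adjusted p = 0.173), with the 2 brightest arrays both from Lip-C OBX mice.

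Foxm1, the transcription factor that activates many of these genes, did not pass on its brightest probe set. That probe set had signals of 131, 81.0 and 99.3 in Lip-C OBX mice, 125, 111 and 135 in Lip-O OBX mice, 115, 155 and 56.0 in Lip-C sham mice, and 70.9, 62.1 and 129 in Lip-O sham mice, and its groups overlapped in each comparison. The mean OBX difference was 0.25 ± 0.22 (adjusted p = 0.412). A dimmer Foxm1 probe set had 69.0, 109.3 and 55.8 in Lip-C OBX mice, 97.4, 65.8 and 73.1 in Lip-O OBX mice, 66.3, 35.5 and 13.8 in Lip-C sham mice, and 6.50, 34.8 and 12.9 in Lip-O sham mice. Its Lip-O OBX arrays all lay above its Lip-O sham arrays, whose mean was under the 40th percentile. It was over the 40th percentile on 3 arrays, all after OBX, and met the filter on dim probe sets through these alone, so no test is given.

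Within Lip-C mice, OBX raised 11 of 39 genes and lowered none at an adjusted p below 0.05, against 19.2% of all genes in either direction and 10.3% in the higher direction. Beside Cks1b, these were Ube2c, Tpx2, Top2a, Ccnb2, Cdk1, Cdca3, Nuf2, Nusap1, Cenpa and Aurka, with log2 changes from 0.45 for Cks1b to 1.06 for Ube2c. In 31 of 39 genes all 3 Lip-C OBX arrays lay above all 3 Lip-C sham arrays, which was so for 23% of all genes. The median difference was 0.64 over the 39 and 0.04 over all genes. The count of 11 changed with single arrays. It was 0 without Lip-C OBX replicate 1, Lip-C OBX replicate 2 or Lip-C sham replicate 2, 1 and 3 without Lip-C sham replicates 3 and 1, and 23 without Lip-C OBX replicate 3, while 6.15%, 7.65%, 7.72%, 8.92%, 14.2% and 22.2% of all genes were called in those fits in the same order. The count was 18 without Lip-O OBX replicate 2 or 3 (18.2% and 19.7% of all genes), arrays that enter this comparison only through the shared estimate of the spread.

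Within Lip-O mice, OBX raised 1 of 39 genes, Cks1b, and lowered 1, Cks2, against 19.6% of all genes called. Deviations of same-numbered Lip-O OBX and Lip-O sham arrays correlated at r = 0.311, 0.275 and 0.135, while Lip-O OBX replicate 2 and Lip-O sham replicate 3 had 0.1638. With the replicate number as a block over all 12 arrays 5 genes rose and 1 fell, against 21.8% of all genes. Beside Cks1b and Cks2 these were Cenpf (0.70 ± 0.14, adjusted p = 0.01), Nuf2 (0.61 ± 0.16, adjusted p = 0.0285), Ube2c (0.67 ± 0.18, adjusted p = 0.0307) and Cenpa (0.47 ± 0.14, adjusted p = 0.0438). Without the block, the median difference was 0.43 with 38 positive, against 0.05 over all genes. In 4 genes (Aurkb, Cenpa, Cks1b and Ube2c) all 3 OBX arrays lay above all 3 sham arrays, a pattern seen in 21.6% of all genes, and in Cks2 all 3 lay below, as in 16.2%. Lip-O sham replicate 2 lay near the OBX arrays, with a median rank of 9 among the 12 arrays for the mitosis genes. Lip-O sham replicates 1 and 3 had median ranks of 4 and 6. The count of 2 was 1 without Lip-O OBX replicate 1 or Lip-O sham replicate 3, 4 without Lip-C OBX replicate 3 and 7 without Lip-O OBX replicate 3. In those fits 10.3%, 11.3%, 20.5% and 18.5% of all genes were called, in the same order. The fall of Cks2 no longer passed without Lip-O OBX replicate 1 or 3 or Lip-O sham replicate 2 or 3, with adjusted p-values up to 0.0862 in limma, and Cks1b passed in every such fit.

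**Figure D4:**
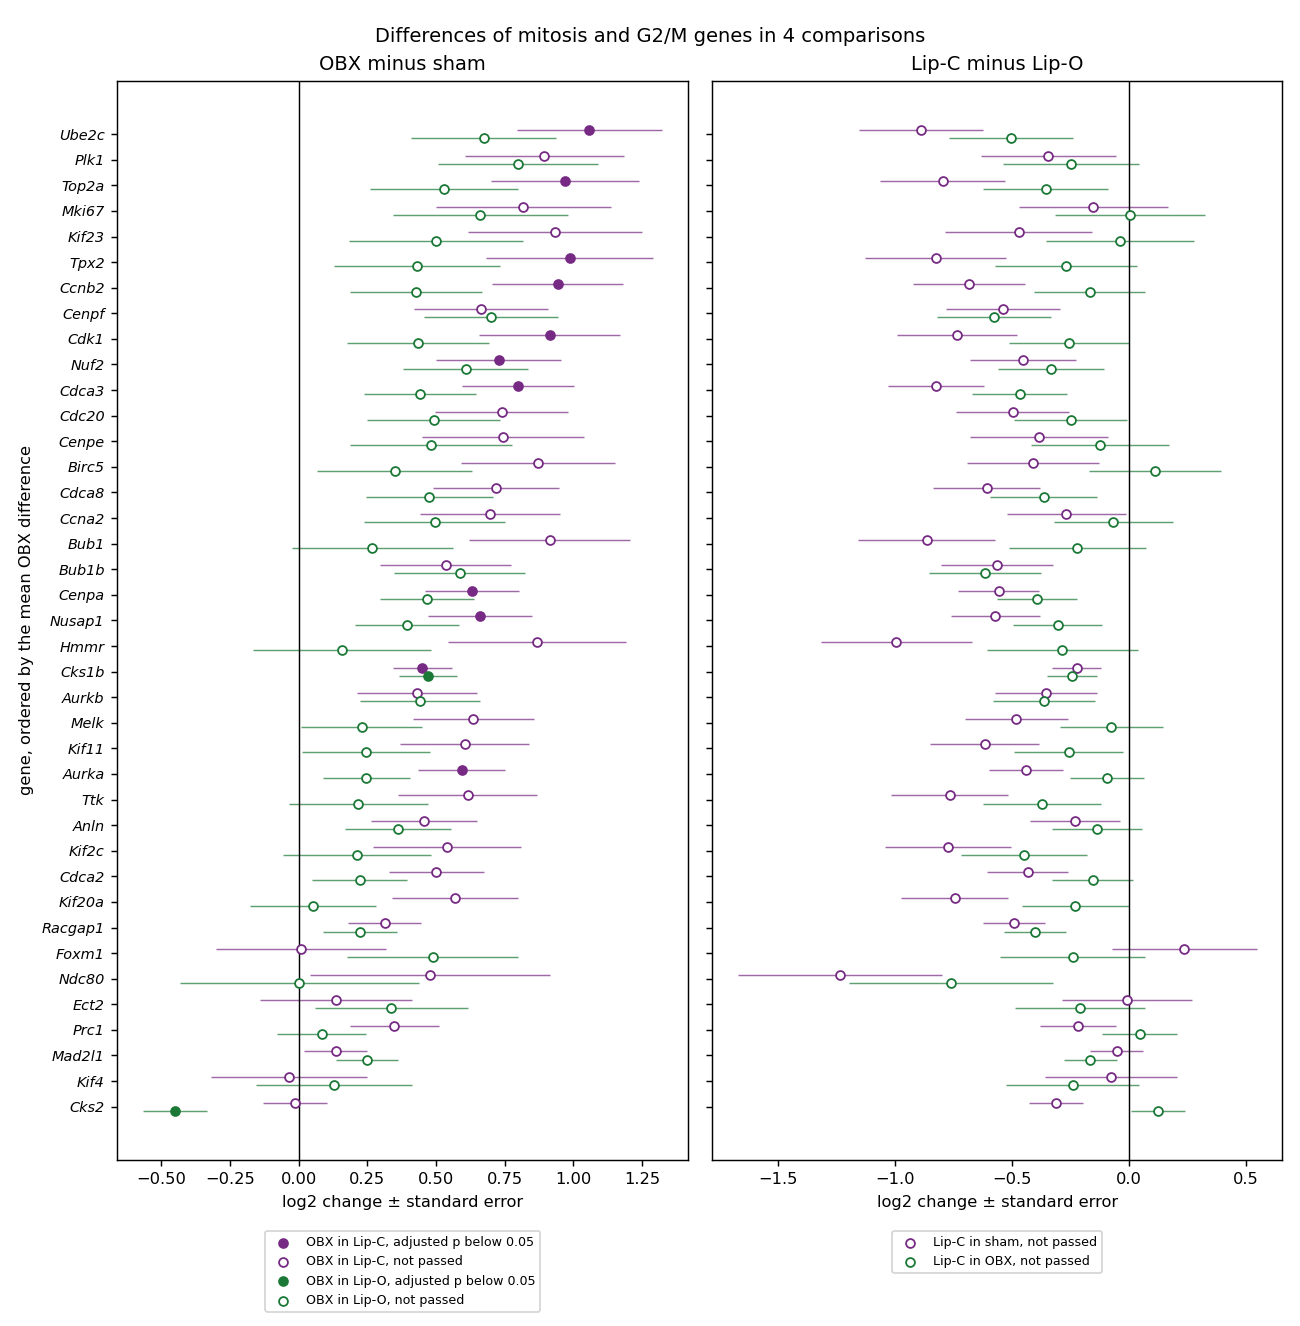
Log2 difference of each of 39 genes with its standard error, OBX minus sham in Lip-C and in Lip-O mice (left) and Lip-C minus Lip-O in sham and in OBX mice (right). Filled points passed at an adjusted p below 0.05: 11 genes for OBX in Lip-C mice, 2 for OBX in Lip-O mice and none for Lip-C in either. Ndc80, Ttk and Hmmr had a compared group under the arrays' 40th percentile.

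Lip-C differences were negative for nearly all the mitosis genes, and without a replicate block none passed the threshold in sham or in OBX mice. In sham mice 0 of 39 passed in limma, against 2.1% of all genes, and the lowest adjusted p was 0.0614 for Cdca3 (-0.82). Deviations of same-numbered Lip-C sham and Lip-O sham arrays correlated at r = 0.327, 0.122 and 0.1003. Lip-C sham replicate 2 and Lip-O sham replicate 3, of different numbers, had 0.1804, above the last 2 of these. With the replicate number as a block 2 of 39 fell, Ube2c (-0.89 ± 0.18, adjusted p = 0.0467) and Cdk1 (-0.74 ± 0.16, adjusted p = 0.0494), against 2.41% of all genes. The differences were negative in 38 of 39 with a median of -0.49, against 0.003 over all genes. In 21 of 39 genes, Ttk among them, every Lip-C sham array lay below every Lip-O sham array, a pattern seen in 13.5% of all genes. An unadjusted p below 0.05 in limma was found for 21 of 39, against 21.9% of all genes in either direction. Without the block, Ube2c (-0.89 ± 0.26, adjusted p = 0.0944), Tpx2 (-0.83 ± 0.30, adjusted p = 0.152) and Top2a (-0.80 ± 0.27, adjusted p = 0.126) had some of the larger differences, none of them past the threshold. The count of 0 became 3 without Lip-O OBX replicate 2 and 2 without Lip-O OBX replicate 3, against 2.3% and 1.98% of all genes.

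After OBX the same comparison gave 0 of 39 in limma, against 0.345% of all genes, and 1 of 39 without Lip-O OBX replicate 3, against 0.558%. The median was -0.25 with 35 of 39 negative, Ndc80 and Ttk again among them, and 6 of 39 had an unadjusted p below 0.05 against 12.7% of all genes. Bub1b was the one gene with all 3 Lip-C OBX arrays below all 3 Lip-O OBX arrays, as were 7.81% of all genes, and it differed by -0.61 ± 0.24 (adjusted p = 0.313). Averaged over sham and OBX mice, all 39 differences were negative, those of Ndc80 and Ttk included, with a median of -0.39. Of the 39, 1 passed, against 1.59% of all genes. This was Racgap1, a subunit of centralspindlin, with signals of 443, 464 and 415 in Lip-C OBX mice, 598, 727 and 463 in Lip-O OBX mice, 334, 349 and 371 in Lip-C sham mice, and 478, 526 and 498 in Lip-O sham mice. In sham mice the groups of Racgap1 did not overlap, and after OBX the highest Lip-C array (463.8) and the lowest Lip-O array (463.0) met. Racgap1 fell by 0.45 ± 0.10 on the log2 scale (adjusted p = 0.0473), and the call was lost in 11 of the 12 fits that each left out 1 array, kept only without Lip-O OBX replicate 3 (adjusted p = 0.00671), where 4 of 39 genes passed, against 1.89% of all genes.

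The OBX change in Lip-C mice minus that in Lip-O mice was positive for 31 of 39 genes, with a median of 0.27. The test of that difference (interaction) passed for 0 of 39 genes in limma and for 0% of all genes. At an unadjusted p below 0.05 it held for 1 of 39, against 17.6% of all genes. That gene was Cks2 (0.44 ± 0.16, adjusted p = 0.208), followed by Kif20a (0.52 ± 0.32, adjusted p = 0.436) and Bub1 (0.65 ± 0.41, adjusted p = 0.444). A difference in the OBX response between Lip-C and Lip-O mice was not detected for any of the 39 genes at this number of arrays.

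Several genes had more than 1 usable probe set, and these did not always point the same way. Of 17 such genes, all probe sets had the same sign in 15 for Lip-C in sham mice, 13 for OBX in Lip-C mice, 11 for OBX in Lip-O mice and 12 for the mean OBX difference. Beside Cks2, Tpx2 had 4 probe sets, and their mean OBX differences were 0.71, 0.51, 0.08 and -0.40. The last 3 were dim, so their differences are uncertain. They were over the 40th percentile on 6, 1 and 1 OBX arrays and on 2, 2 and 4 sham arrays, in that order. When its probe sets were averaged, the dim ones included, Tpx2 no longer passed, with a mean OBX difference of 0.225 (adjusted p = 0.164). Bub1b had another probe set at -0.21, which was dim, over the 40th percentile on 1 OBX and 2 sham arrays. Averaging the 3 probe sets of Bub1b, this one included, gave 0.28 (adjusted p = 0.111). For Prc1, the second probe set differed by -0.39 for OBX in Lip-O mice at an unadjusted p = 0.0457 in limma, and its signals were 232, 238 and 245 in Lip-C OBX mice, 209, 327 and 204 in Lip-O OBX mice, 303, 241.5 and 207 in Lip-C sham mice, and 310.5, 311 and 339 in Lip-O sham mice. Tested by itself in limma, 1 other probe set of Kif2c passed for Lip-C in sham mice (adjusted p = 0.0234) and for the mean Lip-C difference (adjusted p = 0.0211). It had 73.1, 46.9 and 50.6 in Lip-C sham mice, against 146.1, 145.4 and 141.9 in Lip-O sham mice. It was over the 40th percentile on 1 Lip-C sham array and on 3 arrays of each other group. Another probe set of Hmmr had 23.7, 47.6 and 34.5 in Lip-C sham mice, against 81.2, 83 and 88.7 in Lip-O sham mice. It was over the 40th percentile on 3 Lip-O OBX, 3 Lip-O sham, 1 Lip-C OBX and 0 Lip-C sham arrays. The Lip-O arrays alone met the filter, so no test of Lip-C is given for it. Both had Lip-C sham means under the 40th percentile and no overlap in sham mice. The probe sets of Kif2c gave mean OBX differences of 0.38, 0.51 and -0.003.

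**Figure D5:**
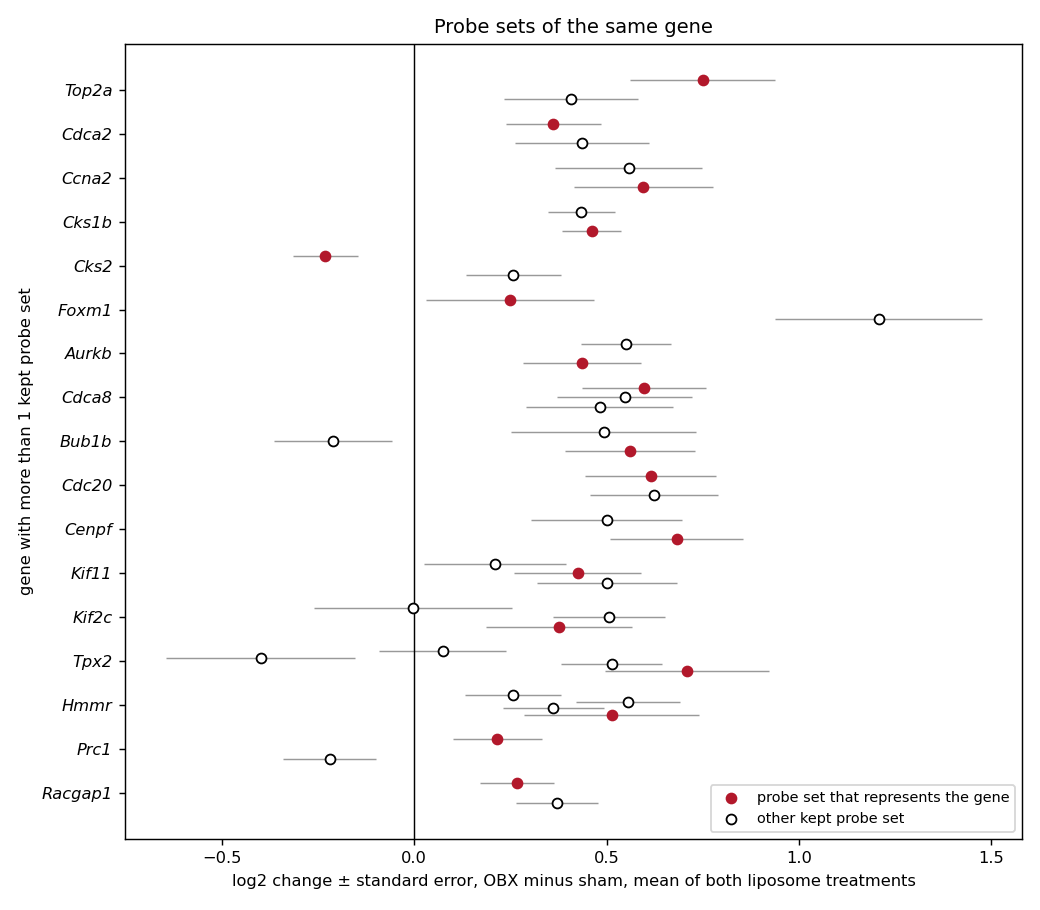
Mean OBX difference of every usable probe set for the 17 genes that had several, on the log2 scale, with the probe set used for the gene set apart from the others. The probe sets of Cks2, Bub1b, Tpx2, Prc1 and Kif2c fall on both sides of 0, and those below 0 for Bub1b and Tpx2 were dim.

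Among genes of neighbouring steps of the cell cycle, the share called for the mean OBX difference was 43.5% of other G2/M genes, 46.7% of G1 genes, 25.8% of S phase genes, 28.6% of brakes and 17.6% of mitotic exit genes, against 32.7% of all genes. The last 3 shares were below that of all genes. Of 46 other measured G2/M genes outside the 39, OBX raised 19 and lowered 1 on average, Ncapg2 (-0.36 ± 0.09, adjusted p = 0.0136), with a median difference of 0.38. Those that rose included the mitotic kinase Pbk (0.70 ± 0.14, adjusted p = 0.00464), the condensin subunit Ncaph (0.56 ± 0.12, adjusted p = 0.00652) and the Ndc80 complex subunit Spc24 (0.51 ± 0.11, adjusted p = 0.00688). Of 31 S phase genes, 8 rose and none fell, with a median of 0.27, among them the histone chaperone subunit Chaf1b (0.43 ± 0.10, adjusted p = 0.00951), the replicative helicase subunit Mcm4 (0.32 ± 0.08, adjusted p = 0.0132) and thymidine kinase Tk1 (0.75 ± 0.21, adjusted p = 0.0196). Of 15 G1 cyclin, kinase and E2F genes, 7 rose and none fell, led by cyclin D2, Ccnd2 (0.48 ± 0.09, adjusted p = 0.00384), and the activator E2f2 (0.75 ± 0.17, adjusted p = 0.0074).

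Of 28 genes that brake the cell cycle, 8 rose and none fell, with a median of 0.08 over the list. They included the stress gene Gadd45a (0.45 ± 0.09, adjusted p = 0.00471), the pocket protein Rbl2 (0.31 ± 0.07, adjusted p = 0.00565) and the Cdk inhibitor Cdkn1c (0.43 ± 0.10, adjusted p = 0.00824). Of 17 mitotic exit and anaphase promoting complex genes, 2 rose, the phosphatase Cdc14b (0.34 ± 0.07, adjusted p = 0.00487) and the subunit Anapc5 (0.21 ± 0.05, adjusted p = 0.0117), and 1 fell, Ube2s (-0.37 ± 0.10, adjusted p = 0.0184), which extends the ubiquitin chains that Ube2c starts. Without each of Lip-C OBX replicates 1 and 2, Lip-C sham replicates 2 and 3, Lip-O OBX replicate 2 and Lip-O sham replicate 1, the S phase genes called were 4, 3, 5, 3, 4 and 5 and the other G2/M genes 11, 11, 11, 10, 12 and 11, in that order. In those fits 25.4%, 25.7%, 26.3%, 27.2%, 27.2% and 28.3% of all genes were called. Without Lip-O OBX replicate 3, 11 of the G1 genes were called, against 32.8% of all genes. For Lip-C in sham mice the other G2/M genes had 38 of 46 negative differences and a median of -0.24, the S phase genes a median of -0.14, and none of either list passed in limma at an adjusted p below 0.05.

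Markers of several cell types moved in the same comparisons, and their part in the mitosis results was not tested. The counts for the mean OBX difference stand against 32.7% of all genes called, 19.2% in the higher direction. With OBX, 5 of 8 horizontal basal cell markers rose on average, with summed signals of 4098 to 6120 in Lip-C OBX mice and 4690 to 5161 in Lip-O OBX mice, against 2869 to 4034 in Lip-C sham mice and 3276 to 4302 in Lip-O sham mice. Of 12 macrophage markers, 8 rose, with sums of 12942 to 17710 in Lip-C OBX mice and 13520 to 22556 in Lip-O OBX mice, against 8147 to 12140 in Lip-C sham mice and 9014 to 14352 in Lip-O sham mice. Of 9 neuronal precursor markers, 4 rose and 2 fell with OBX. Among the other lists, OBX raised 4 of 7 endothelial, 4 of 8 sustentacular, 3 of 8 fibroblast and 2 of 9 erythroid markers, and 0 of 9 myeloid progenitor and 0 of 4 measured B cell progenitor markers passed in limma. In Lip-C mice 6 of 8 fibroblast markers rose with OBX, with a median difference of 0.95, against 10.3% of all genes higher and 19.2% called. In Lip-O mice 1 of 8 rose, with a median of -0.08, against 19.6% of all genes called. The interaction passed for 0 of 8 in limma, as for 0% of all genes, and 5 of 8 had an unadjusted p below 0.05, against 17.6% of all genes.

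The counts for the mean Lip-C difference stand against 1.59% of all genes called. With Lip-C, 4 of 9 neuronal precursor markers fell on average, with sums of 12101 to 15021 in Lip-C OBX mice against 17000 to 19245 in Lip-O OBX mice, and 12991 to 15410 in Lip-C sham mice against 15863 to 16841 in Lip-O sham mice. Neither pair of ranges overlapped. Of 9 measured myeloid progenitor markers, 4 rose with Lip-C on average, as did 1 of 7 endothelial markers, while 1 of 8 horizontal basal cell, 1 of 8 sustentacular and 1 of 8 fibroblast markers fell. All 8 fibroblast markers were lower in Lip-C sham than in Lip-O sham mice, with sums of 22581 to 29659 against 34448 to 60288, although none passed in limma in sham mice. No macrophage marker passed for the mean Lip-C difference, 11 of 12 being negative. In sham mice 2 of 12 fell with Lip-C, against 2.1% of all genes called. Markers of B cell progenitors, another dividing population, were dim, with 7 of 10 probe sets (Vpreb1, Igll1, Rag1, Rag2, Cd79a, Dntt and Pax5) under the arrays' 40th percentile.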

How the data were processed

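Probe set intensity values on a linear scale were taken as deposited. Total RNA was turned into cRNA with a biotin label and hybridised to Affymetrix arrays, per the labels' protocols, and the authors had scaled the 12 arrays to a common level (a mean of 500 once 2% was trimmed). How probes were summarised into probe sets is not stated in the labels or the file. Medians per array ran from 117.4 to 134.1. All 12 columns of values were used, and no pair of arrays shared more than 0.315% of its values.

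From these values, log2(signal + 16) was computed for the 45037 probe sets that are not controls. The filter asked for a signal over the 40th percentile of the array on at least 3 arrays (28986 probe sets passed), genes came from the platform annotation (34945 probe sets with 1 symbol, 932 with several, 9160 with none), and the kept probe set with the highest mean represented a gene. The pseudocount makes a fold of a dim gene too small. For the probe set that represents a gene, signals therefore replace the log2 change wherever a compared group averaged less than the lowest of the arrays' 40th percentiles (65.3). Figures and comparisons of a gene's probe sets also show changes of dim ones. Symbols were checked against the RefSeq gene table (GRCm38.p6, used for names and promoter sequences), which matched 34741 probe sets and changed 0 symbols.

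A single limma model (version 3.58.1, R 4.3.3) held the 4 group means (8 residual degrees of freedom, 2.56 added by moderation), after the crossed design the series describes. The 7 comparisons were each factor within each level of the other, both main effects and the interaction, each two-sided and adjusted by Benjamini-Hochberg over 13628 genes with a threshold of 0.05. The model was tested on simulated data. The number of arrays limits the precision, with a median standard error of 0.124 for a change between groups, and an exact permutation test of 3 against 3 arrays cannot go below p = 0.1. Replicate numbers were taken to pair arrays where all 3 same-numbered pairs of a comparison had deviations from the group means that correlated over 0.1 across genes. This held for OBX in Lip-O mice (r = 0.311, 0.275 and 0.135) and for Lip-C in sham mice (0.327, 0.122 and 0.1003), and the labels do not say what a number shares. A promoter motif was counted once per gene if any of its promoters held it.

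Signals are given for each array for every gene past the threshold in any comparison, the 3 genes with the smallest p in each, the brightest gene of each role, and genes with disagreeing probe sets. The remaining genes are summarised. The 40 genes, the cell cycle lists and the marker lists were chosen with earlier results of these data known. The alternatives were quantile normalization, pseudocounts of 1 and 64, other filters, other handling of probe sets, a replicate block, other variance models, only the groups compared, and each array left out in turn.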

Additional observations from a re-analysis of the deposited data

How the results depend on the processing

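Leaving out each array in turn, the number of the 39 genes called was 14 to 30 for the mean OBX difference (24 with all arrays), 0 to 23 for its value in Lip-C mice (11), 1 to 7 for that in Lip-O mice (2), 0 to 3 for Lip-C in sham mice (0), 0 to 1 for Lip-C in OBX mice (0), 0 to 4 for the mean Lip-C difference (1) and 0 for the interaction. In the same fits and order, the share of all genes called ran from 25.4% to 34.3%, 6.15% to 22.2%, 10.3% to 20.5%, 0.125% to 2.3%, 0.0514% to 0.558%, 0.616% to 1.89% and 0% to 1.14%. For the other lists the number called for the mean OBX difference was 3 to 11 S phase genes (8), 10 to 22 other G2/M genes (20), 5 to 11 G1 genes (7), 6 to 9 brakes (8) and 3 to 4 mitotic exit genes (3). Percentages in brackets below are the share of all genes called in the same fit. In an unmoderated two-factor model 14 genes were called for the mean OBX difference (30.3%), 3 for OBX in Lip-C mice (15.2%), 0 for the mean Lip-C difference (0.925%), 4 S phase genes and 12 other G2/M genes. Fitting only the groups compared gave 19 for OBX in Lip-C mice (14.1%) and 1 in Lip-O mice (11.5%). With no filter the mean Lip-C difference had 0 calls (0.583%) and OBX in Lip-C mice 5 (9.54%). With a filter at the array median they had 2 (1.98%) and 17 (24%), with 1 for Lip-C in sham mice (4.07%). A trended, robust prior variance gave 18 for OBX in Lip-C mice (21.6%), 2 for the mean Lip-C difference (2.39%) and 1 for Lip-C in sham mice (4.51%). The mean of the probe sets gave 3 for the mean Lip-C difference (1.69%) and 1 for Lip-C in sham mice (1.44%). Every probe set by itself gave 2 and 2 (1.22% and 3.78% of all probe sets), and 5 mitotic exit genes. Both counts of 2 include the Hmmr probe set that met the filter through Lip-O arrays alone. The mean Lip-C difference had 2 with quantile normalization (1.51%) and 0 with a pseudocount of 1 (1.42%). The cause of these shifts was not tested. Of the values for single genes, 903 kept their direction and side of the threshold, 198 lost the call, 17 gained it and none reversed. With the replicate block 20 genes were called for OBX in Lip-C mice (22%), 6 in Lip-O mice (21.8%), 4 for the mean Lip-C difference (1.78%) and 2 for Lip-C in sham mice (2.41%). The block changed the count by over 1.5 times in these comparisons alone. Of the same-numbered pairs, 11 of 18 had r over 0.1, against 3 of 36 pairs with different numbers. Within Lip-C mice (r = 0.164, 0.0398 and 0.077) and between the OBX groups (0.0797, 0.16 and 0.253) not every pair did. There the numbers were not taken to pair arrays, and whether those arrays share more than a number is not known. Ndc80 averaged under the arrays' 40th percentile, and Ttk and Hmmr did so in Lip-C sham mice, where their changes are uncertain.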
